A study of Mus musculus with 12 samples.

Results

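Gene expression in motoneurons was compared with that in sciatic nerve of wild type mice. The nerve carries the axons of motoneurons, together with the Schwann cells that wrap them, but not the motoneuron cell bodies. The comparison used the 3 motoneuron arrays and the 3 sciatic nerve arrays labelled wild type, 6 of the 12 arrays of the study. The other 6 came from mice in which an exon of Gdap1 was deleted, and they are set beside the wild type values where stated. All mice were untreated and aged 2 months. Motoneurons were cut out by laser microdissection and their RNA was purified with a small-scale column kit, whereas nerves were shock frozen and lysed whole and their RNA was purified with a kit for fatty tissue. Both kinds of RNA then went through the same amplification and biotin labelling, from 20 ng of total RNA each, and only samples that yielded enough RNA of good quality were used. Tissue, dissection and extraction kit therefore cannot be told apart. Sex-linked transcripts, given below, also differed: by them all motoneuron arrays read as female, and of the nerve arrays only replicate 2. Tissue and sex are therefore partly confounded. The labels call the arrays of a group biological replicates.

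A motoneuron synthesizes its transmitter acetylcholine, its cytoskeleton and its ion channels in a cell body in the spinal cord and ships the products along the axon. A Schwann cell wraps a stretch of that axon with myelin under the control of the transcription factors Sox10 and Egr2, in response to neuregulin presented by the axon. Around these units lie the fibroblasts, vessels, macrophages, mast cells and fat of the nerve sheaths, so a nerve lysate holds RNA from many cell types.

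Log2 values were deposited for 45101 probe sets, of which 45037 were tested, and the arrays of each tissue had been scaled apart from those of the other. Medians lay between 8.29 and 8.32 in the 3 nerve arrays and between 6.53 and 6.55 in the 3 motoneuron arrays. Each difference, motoneurons minus nerve, was therefore taken as deposited, after joint quantile normalization of the 6 arrays, and after each array was centred on its own median. Over 18193 genes, each represented by its brightest probe set, the median difference was -0.90 as deposited, 0.24 after quantile normalization and 0.86 after centring. A log2 difference of 1 is a factor of 2. Of the probe sets, 82.1% were called as deposited, 72.5% after quantile normalization and 79.6% after centring. The share of these calls that were higher in motoneurons was 17.4%, 54.6% and 69.0% in the same order, so that share depended on the scaling. A gene was called higher or lower here only where limma gave an adjusted p below 0.05 with the same sign in all 3 scalings. Every probe set higher as deposited met that rule, as did 10896 of the 11106 lower after centring. Each direction was thus set almost wholly by 1 scaling, and the 3 are not separate supports. By that rule 3226 genes were higher in motoneurons (17.7%) and 3591 were lower (19.7%), while 4769 genes (26.2%) were called with opposite signs in different scalings and have no direction. By at least 2 in every scaling, 1198 genes were higher (6.58%) and 1718 lower (9.44%). Unless another value is named, the difference given for a gene below is the smallest of its 3 differences. Pearson correlations over probe sets were at least 0.982 between arrays of a tissue and at most 0.766 between tissues. In bulk samples of this kind, fewer cells of a type and less RNA per cell cannot be told apart.

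Stretches upstream of 4 of the most different genes are shown because they are among the 15 genes at either end of the comparison and their start regions differ in letters. They are the 150 bases before the transcription start in RefSeq (GRCm38.p6), on the strand of the gene. Egr2 has 5 starts there, of which the first listed was used. Gabra5 encodes a subunit of the GABA-A receptor and was higher in motoneurons. Egr2 drives the myelin programme, Cyp2e1 encodes a cytochrome P450 enzyme and Anxa1 encodes annexin A1, and these 3 were lower in motoneurons. Capitals mark the letters TATAAA, the core of a TATA box. They stand at chr7:57510060-57510209 on the minus strand for Gabra5, chr10:67535349-67535498 on the plus strand for Egr2, chr7:140763669-140763818 on the plus strand for Cyp2e1 and chr19:20390672-20390821 on the minus strand for Anxa1.
Gabra5: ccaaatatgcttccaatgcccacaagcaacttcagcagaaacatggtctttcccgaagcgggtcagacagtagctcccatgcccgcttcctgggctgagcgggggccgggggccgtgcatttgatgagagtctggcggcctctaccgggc
Egr2: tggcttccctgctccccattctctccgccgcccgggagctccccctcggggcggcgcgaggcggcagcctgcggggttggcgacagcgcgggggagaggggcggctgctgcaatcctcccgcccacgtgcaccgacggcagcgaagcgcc
Cyp2e1: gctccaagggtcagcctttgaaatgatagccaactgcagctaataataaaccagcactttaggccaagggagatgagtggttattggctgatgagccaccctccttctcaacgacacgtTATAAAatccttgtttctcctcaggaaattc
Anxa1: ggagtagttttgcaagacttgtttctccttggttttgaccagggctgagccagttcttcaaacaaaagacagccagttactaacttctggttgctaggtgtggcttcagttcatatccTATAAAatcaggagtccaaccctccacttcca
The TATAAA of Cyp2e1 begins 31 bases and that of Anxa1 32 bases before the start, whereas the printed stretches of Gabra5 and Egr2 hold none. The dinucleotide CG occurred 13 times in the 300-base window around the Gabra5 start and 32 times around that of Egr2, against 4 times for Cyp2e1 and 3 times for Anxa1. Such windows were matched for 11 of the 15 genes most raised in motoneurons and 8 of the 15 most raised in nerve. Their median CG count was 10 and 3.5 in that order, beside 7 over all windows. The sides overlapped, from 3 in Lamp5 to 25 in Gabra2 and from 1 in Islr to 32 in Egr2. TATAAA, on either strand, was in 2 of the 11 and in 4 of the 8, beside 14.2% of the windows of 27025 genes. Only those of Cyp2e1 and Anxa1 stood near the usual place of a TATA box. In the other genes raised in nerve the matches lay 227 and 229 bases before the start in Ogn and after the start in Dpt. In the genes raised in motoneurons they lay 243 bases before the start in Fstl5 and 140 bases before it in Oprl1, both on the other strand. The left and right parts of the RE1 element, the cyclic AMP response element TGACGTCA, the Egr site GCGTGGGCG and the Ebf site, searched on both strands, had no match in these windows. They matched 0.359%, 0.54%, 1.88%, 0.625% and 0.914% of all windows.

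The gene with the greatest excess in motoneurons was Trhr (chromosome 15), the receptor of thyrotropin-releasing hormone, which excites motoneurons. Its deposited levels were 12.53, 12.54 and 12.97 in the motoneuron arrays and 2.55, 2.48 and 2.76 in the nerve arrays. No array of one tissue came near the range of the other, and the difference was 10.08 (SE 0.20) as deposited, 10.40 after quantile normalization and 11.84 after centring (adjusted p = 5.59e-08 as deposited, by limma). Fstl5, a secreted follistatin-like protein, read 12.57, 12.66 and 12.24 in motoneurons and 2.70, 2.61 and 3.0 in nerve, a difference of at least 9.72. Gabra5 read 12.42, 12.70 and 12.44 in motoneurons and 3.21, 3.25 and 2.47 in nerve, a difference of at least 9.55. These nerve levels lie near the bottom of the arrays, whose lowest values were 1.97 or less.

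The rest of the 15 genes most raised in motoneurons differed by 8.67 to 9.69. Receptors among them were Gabra2, another GABA-A subunit, by 8.67, Oprl1, the nociceptin receptor, by 8.73, and Htr2c, a serotonin receptor, by 8.72. Genes of secretion were Cadps, which primes dense-core vesicles, by 9.25, Vgf, a neuropeptide precursor, by 8.78, and Slc17a6, the vesicular glutamate transporter VGLUT2, by 8.95. Slc17a6 is also a member of the spinal interneuron list below. Olfm3, an olfactomedin, differed by 9.69, Slitrk4, a synaptic adhesion protein, by 8.71 and the lysosomal membrane protein gene Lamp5 by 8.70. Tmem130, Smim17 and A930009L07Rik completed the set with 9.30, 8.98 and 9.06.

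The gene with the greatest excess in nerve was Pmp2 (chromosome 3), the fatty acid-binding protein of peripheral myelin. Its deposited levels were 14.65, 14.64 and 14.72 in the nerve arrays and 3.78, 3.31 and 3.53 in the motoneuron arrays. The difference was -11.13 (SE 0.18) as deposited, -10.28 after quantile normalization and -9.37 after centring (adjusted p = 5.59e-08 as deposited, by limma). Cyp2e1 read 14.71, 14.77 and 14.47 in nerve and 3.27, 3.74 and 3.62 in motoneurons. Egr2 read 13.83, 13.68 and 14.07 in nerve and 3.69, 3.69 and 3.82 in motoneurons. For all 3 genes every nerve array lay above every motoneuron array, and the call held in every scaling, both conditions for being named here.

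The other genes most raised in nerve were mainly of connective tissue. Small proteoglycans and matrix proteins led, with Ogn at -9.21, Smoc2 at -9.28, Mfap5 at -8.79, Dpt at -8.43, Omd at -8.29, Islr at -8.48 and the collagen gene Col6a1 at -8.20. Lox, which crosslinks collagen and elastin, differed by -8.68. Ces1d, a carboxylesterase of fat and liver, differed by -9.08, and Orm1, an acute-phase glycoprotein, by -8.47. Both had their lowest nerve level in replicate 3, 13.36 for Ces1d and 12.88 for Orm1. Anxa1 at -8.50 and the adhesion gene Mpzl2 at -8.37 completed the 15. All 30 genes had adjusted p-values of at most 1.03e-06 by limma in every scaling, with standard errors between 0.15 and 0.47.

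**Figure D1:**
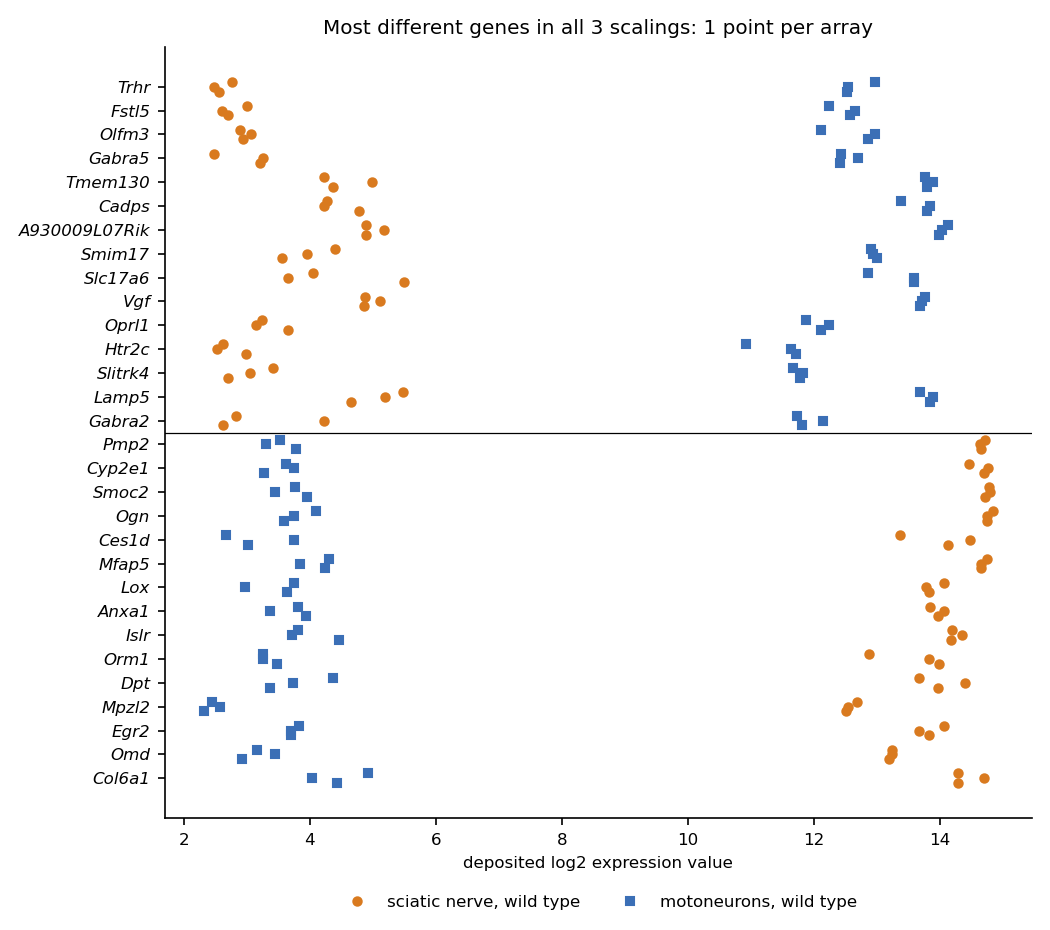
Deposited log2 values (horizontal axis) of the 15 genes most raised in motoneurons, above the line, and the 15 most raised in nerve, below it; each point is 1 array, circles for nerve and squares for motoneurons. By the rule that chose them, the tissues do not overlap for any of these genes. Trhr and Pmp2 stand at the ends with smallest differences of 10.08 and -9.37.

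Markers were read against the labels before gene groups were compared. Of 14 measured genes of cholinergic transmission, 7 were higher in motoneurons and none was lower, with a median difference from 0.55 as deposited to 2.31 after centring. Slc18a3, the vesicular acetylcholine transporter, read 12.01, 11.93 and 12.67 in motoneurons against 5.87, 5.38 and 5.75 in nerve, with no overlap. Ache, which degrades acetylcholine, was higher by 6.29, the choline transporter gene Slc5a7 by 4.78 and the nicotinic receptor genes Chrna7, Chrnb2 and Chrna4 by 3.64, 3.09 and 2.55. Chat, the enzyme that makes acetylcholine, is represented by 1 probe set, which read 5.30, 4.82 and 4.39 in motoneurons and 5.11, 5.03 and 5.23 in nerve. It thus lay below the array median in both tissues, and its difference of -0.29 as deposited and 1.47 after centring passed no common call. The muscarinic receptor genes Chrm1 and Chrm3 and the nicotinic subunit gene Chrnb4 were called with opposite signs.

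Of 16 transcription factor genes tied to motoneuron identity, 8 were higher in motoneurons and 4 were lower. The 8 comprised the LIM and homeobox genes that specify motoneurons and the estrogen-related receptors of their subtypes. Mnx1 read 9.57, 9.56 and 9.74 in motoneurons and 3.18, 3.09 and 3.68 in nerve, a difference of at least 6.30. Lhx4 was higher by 5.95, Isl1 by 5.65, Lhx3 by 3.49, Isl2 by 2.75, Onecut2 by 2.25, Esrrg by 5.70 and Esrrb by 5.05. The members lower in motoneurons were the early B-cell factor genes Ebf1, Ebf2 and Ebf3 and the POU gene Pou3f1, which also acts in Schwann cells. Ebf2 read 13.52, 13.36 and 13.24 in nerve and 3.85, 4.16 and 3.91 in motoneurons, a difference of -7.64 at the smallest. Ebf1 differed by -1.52, Pou3f1 by -1.37 and Ebf3 by -0.81. The call of Pou3f1 was lost without nerve replicate 3, and that of Ebf3 without nerve replicate 1 or 2 or motoneuron replicate 2 or 3, with smallest differences of 0.94 and 0.55 in size. Of 14 subtype and peptide genes, 12 were higher and none lower, led by Calcb, a calcitonin gene-related peptide, by 8.36, the calcium-binding proteins Calb2 and Calb1 by 7.78 and 6.82, and Chodl, a marker of fast motoneurons, by 7.33.

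Markers of other spinal cord cell types were also read. Of 20 genes that mark spinal interneurons, 9 were higher in motoneurons and 2, Reln and Gata2, were lower. Slc6a5, the glycine transporter of inhibitory neurons, read 13.12, 13.08 and 12.07 in motoneurons and 4.08, 4.20 and 4.38 in nerve. Gad1, which makes GABA, read 10.03, 10.17 and 8.89 in motoneurons and 2.70, 3.15 and 2.75 in nerve. Slc17a6, named above and the member with the greatest difference, read 13.60, 13.59 and 12.86 in motoneurons. Motoneuron replicate 3 was the lowest of its group for all 3 genes. The mean of the whole list was lowest there too, at 8.32, 8.24 and 7.57 in motoneuron replicates 1, 2 and 3. In nerve it was 6.73, 6.59 and 6.63. The vesicular GABA and glycine transporter gene Slc32a1 was higher by 7.53 and Gad2 by 4.02. Of 14 oligodendrocyte genes, 10 were higher, led by the myelin gene Mog by 7.43 and by Ermn by 6.12, Olig2 by 5.35 and Olig1 by 5.13, and Aspa was lower. Of 18 astrocyte genes, 8 were higher, led by the water channel Aqp4 by 5.48, Mlc1 by 5.03 and the glutamate transporter Slc1a2 by 4.30. Another 3 were lower, 3 had opposite calls and 4 passed no common call. The higher share was 44.4% beside 17.7% of all genes, and the lower share 16.7% beside 19.7%. The lower members included Gja1 by -0.27, whose call was lost without nerve replicate 1 or 3 or motoneuron replicate 2 or 3. Averaging all probe sets of a gene gave 3 lower oligodendrocyte genes in place of 1. The source of these transcripts was not tested. Nor was the part of these cell types in the subtype and peptide genes above, Calb1 and Calb2 included, or in the neuronal and myelin groups below.

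All 5 measured intermediate filament genes of neurons rose above nerve, with list means of 14.48, 14.45 and 14.49 in the motoneuron arrays and 8.70, 8.44 and 8.99 in the nerve arrays. Nefl, the light neurofilament subunit, read 15.09, 15.09 and 15.13 in motoneurons, close to the highest value on those arrays, and 10.25, 9.90 and 10.52 in nerve. Its difference was at least 4.88, that of the medium subunit gene Nefm 6.29, of the heavy subunit gene Nefh 5.18, of Ina 8.16 and of Prph 4.28. Of 27 genes for motors and microtubule proteins, 19 were higher and 1, the mitochondrial adaptor gene Trak2, was lower by -1.32. The dynein intermediate chain gene Dync1i1 was higher by 6.38, Map2 by 4.99, Klc1 by 4.67, Stmn4 by 2.89 and tau, Mapt, by 2.43. Kif3b, Kif5b, Trak1, Dync1i2 and Stmn1 were called with opposite signs in different scalings, and Kif1a and Map6 passed no common call.

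Genes of release and excitability showed the same direction in most members. Of 25 synaptic vesicle and release genes, 21 were higher and 1 was lower, with a median difference from 3.64 as deposited to 5.40 after centring. Sv2b was higher by 7.29, the endocytic adaptor gene Snap91 by 6.37, the calcium sensor Syt2 by 6.29 and the SNARE gene Snap25 by 5.32. The exception was the syntaxin gene Stx1a, lower by -2.42. Of 20 glutamate receptor genes 17 were higher, led by Gria2 by 7.22, Grm7 by 6.82, Grm5 by 6.21 and Grin3a by 5.30. Of 16 genes for GABA-A and glycine receptors, their anchor and chloride transporters, 12 were higher. Beside Gabra5 and Gabra2 these included the glycine receptor gene Glra1 by 8.37 and the potassium-chloride cotransporter Slc12a5, which keeps chloride low in mature neurons, by 6.31. Its counterpart Slc12a2, which loads chloride into cells, was called with opposite signs.

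Of 14 voltage-gated calcium channel genes 10 were higher in motoneurons and none lower, with Cacna2d3 leading by 6.86. Of 29 potassium channel genes 19 were higher and 3 lower. Kcnc1, whose channels allow fast firing, was higher by 8.14, the inward rectifier Kcnj3 by 8.0 and Kcnq3 by 5.93. The members lower in motoneurons were Kcna5 by -3.02, Kcnj8, which pericytes express, by -3.01 and Kcna6 by -0.52. Kcna6 lost its call without nerve replicate 3 or motoneuron replicate 2 or 3, with a smallest difference of 0.43, and its probe sets disagreed. Of 11 sodium channel genes 5 were higher and 2 lower. Scn1a read 13.94, 13.97 and 13.81 in motoneurons and 5.51, 6.02 and 5.90 in nerve. Scn7a, a sodium channel relative found in non-myelinating Schwann cells, showed the reverse, with 14.34, 14.29 and 14.48 in nerve and 6.55, 6.77 and 6.63 in motoneurons. The accessory gene Scn3b was lower by -4.74, while Scn4b and Scn8a, the channel of mature nodes of Ranvier, were higher by 3.37 and 3.33.

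Axon and Schwann cell meet through adhesion proteins of either side. Of 13 axonal proteins of node, paranode and juxtaparanode, 10 were higher in motoneurons and none lower. Cntnap2 was higher by 5.97, the nodal spectrin Sptbn4 by 5.08, Cntn2 by 4.59, Cntn1 by 3.80 and Cntnap1 by 2.91. Kcna1 passed with 0.46, while Kcna2, Ank3 and Cadm3 passed no common call at levels above 12.6 in both tissues. Of 13 Schwann cell adhesion and microvillus genes, 5 were lower, 2 were higher, 2 had opposite calls and 4 passed no common call. With all probe sets of a gene averaged, 8 of these were lower and 1 higher, and 2 of the axonal genes were lower. Cdh1, the cadherin of myelin incisures and loops, was lower by -7.05, Epb41l2 by -3.70, Ezr by -3.33 and Cadm4, the glial partner of axonal adhesion proteins, by -1.21. The members higher in motoneurons, Cntn2 and Nfasc, are made by axons as well as by glia.

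Of 9 measured myelin genes of Schwann cells 8 were lower in motoneurons and none was higher, with a median difference of -7.40 as deposited and -5.64 after centring. After Pmp2, Dhh, the hedgehog ligand of Schwann cells, was lower by -8.06 and Cldn19, the claudin of myelin loops, by -7.97. Ncmap was lower by -5.64, Drp2 by -2.34, Sh3tc2 by -2.30 and the connexin gene Gjb1 by -1.74. Pmp22 behaved otherwise. It read 15.25, 15.24 and 15.29 in nerve and 13.97, 13.97 and 14.14 in motoneurons, among the highest levels on both. Its difference was -1.23 as deposited, -0.79 after quantile normalization and 0.53 after centring, each past the threshold, so it has no direction here.

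Among 11 myelin genes that Schwann cells share with oligodendrocytes, 7 were lower, 1 was higher and 2 had opposite calls. Mbp, which compacts myelin in both systems, read 15.21, 15.30 and 15.33 in nerve and 14.49, 14.44 and 14.55 in motoneurons, with differences from -0.78 as deposited to 0.98 after centring. Cnp showed the same pattern, from -1.32 to 0.44. Cd9 was lower by -4.61, the connexin gene Gjc3 by -3.31 and Fa2h, which hydroxylates myelin lipids, by -2.05. The 1 higher member, Tspan2 by 0.47, kept its call only when motoneuron replicate 2 was the array left out, and its smallest difference was otherwise down to 0.33. Ugt8a and Gal3st1, which make the myelin lipids galactosylceramide and sulfatide, differed by -0.59 and -0.55. They kept their calls only when the array left out was motoneuron replicate 1 for Ugt8a and motoneuron replicate 2 for Gal3st1, with differences down to 0.31 and 0.36 in size.

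Schwann cell regulators were lower in 12 of 14 measured cases and higher in none, with a median from -3.98 as deposited to -2.22 after centring. The adhesion receptor gene Adgrg6, needed for myelination, was lower by -5.05, Tead1 by -3.75, Nfatc4 by -3.32 and Sox10 by -2.26. S100b, a calcium-binding protein used as a Schwann cell marker, was called with opposite signs, at 14.54 in nerve and 14.19 in motoneurons, as was Pou3f2. Genes that mark Schwann cells outside the myelinating state (immature, repair or non-myelinating) were higher in 3 of 15 cases and lower in 3, shares close to the 17.7% and 19.7% of all genes. Gfap, which spinal astrocytes also make, was higher by 3.24. Cdh19 was lower by -4.47 and the neurotrophin receptor gene Ngfr by -3.13. Of 16 enzymes of cholesterol synthesis, which myelinating cells use heavily, 12 had opposite calls and 1, Lss, was lower by -0.93, without nerve replicate 3 not called, with a smallest difference of 0.62. With all probe sets of a gene averaged 4 were lower.

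Ligands and receptors of axon-glia signalling were split between the tissues. Nrg1, the axonal signal for Schwann cells, read 11.36, 11.78 and 10.44 in motoneurons and 6.44, 4.97 and 6.13 in nerve, a difference of at least 5.35, and Nrg3 was higher by 6.84. The receptor genes were lower. Erbb3, which binds neuregulin, read 13.62, 13.45 and 14.00 in nerve and 8.73, 7.92 and 9.41 in motoneurons, a difference of -3.24 at the smallest, and its partner Erbb2 was lower by -3.17. Nrg4 was lower by -4.29 and Egfr by -4.68. In the hedgehog group of 9 genes, 6 were lower and 1 was higher. Dhh read 14.17, 14.10 and 14.30 in nerve and 3.90, 4.73 and 4.48 in motoneurons. Shh, its relative, showed the reverse, with 11.46, 12.08 and 11.79 in motoneurons and 8.04, 7.65 and 8.10 in nerve. The receptor and effector genes Ptch1, Smo, Gli1, Gli2 and Gli3 were lower by -0.97 to -2.91.

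Trophic factors followed no single direction. Ret, the signalling receptor for the GDNF family, read 13.80, 13.81 and 13.68 in motoneurons and 9.96, 9.93 and 10.44 in nerve, a difference of at least 3.66. Its co-receptor Gfra4 was higher by 1.15 and Gfra3 lower by -1.74, while Gfra1 stood at 12.95 in motoneurons and 12.98 in nerve and passed no common call. Bdnf was higher by 3.56, and Ngfr and Ntf5 were the lower members of 6 neurotrophin genes. Of 6 genes of the CNTF and LIF family, Lif, Ctf1 and Il6st were lower, by -2.74, -2.60 and -0.90. Of 20 other trophic genes 9 were lower and 1, Fgfr3, higher; 2 were higher without nerve replicate 2 and none with all probe sets of a gene averaged. The insulin-like growth factor genes Igf2 and Igf1 were lower by -5.36 and -3.95.

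Connective tissue and vessel genes were lower in motoneurons with few exceptions. Of 32 fibroblast and matrix genes 31 were lower and none was higher, with a median of -7.42 as deposited and -5.66 after centring. Dcn, a proteoglycan of the endoneurium, read 15.33, 15.35 and 15.34 in nerve and 9.88, 9.99 and 8.72 in motoneurons. Its motoneuron levels were lower than any nerve level but above the array median. Col1a1 and Col3a1 were lower by -7.27 and -7.29. The remaining member, Timp2, a protease inhibitor, had opposite calls at 13.61 in motoneurons. Of 18 basal lamina genes 15 were lower, led by the laminin gene Lama4 by -6.87, the nidogen gene Nid1 by -5.55 and perlecan, Hspg2, by -4.99. Agrn, which motoneurons release to organize the neuromuscular junction, was the 1 member with opposite calls.

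Of 18 endothelial genes 16 were lower, with Vwf by -5.38, Emcn by -4.56 and Robo4 by -3.99 leading. The endothelial adhesion gene Pecam1 read 10.22, 10.08 and 9.89 in nerve and 4.52, 5.25 and 4.79 in motoneurons. All 12 genes of pericytes and smooth muscle were lower, led by the contractile genes Tagln by -5.83 and Acta2 by -5.40, although Cnn1 lost its call without nerve replicate 1 or 2 or motoneuron replicate 1, with a smallest difference of 1.61 in size. Fat cell genes were among the most different. Of 13 adipocyte genes 12 were lower, with a median of -8.62 as deposited. Adipoq, the adiponectin gene, read 14.61, 14.71 and 14.24 in nerve and 4.59, 5.19 and 4.40 in motoneurons, and Car3 and Retn were lower by -8.07 and -7.74. Ucp1, the marker of brown fat, read 6.04 on average in nerve, below the array medians, and passed no common call.

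Immune genes were likewise mostly lower. Of 19 macrophage genes 18 were lower and none was higher, led by the scavenger receptor genes Mrc1 by -7.84 and Cd163 by -7.56 and by lysozyme, Lyz2, by -5.20. Csf1r, the receptor that sustains macrophages and microglia, read 14.01, 14.47 and 13.92 in nerve and 10.18, 9.99 and 10.27 in motoneurons. Of 7 microglia genes 4 were lower, and 1, Sall1, was higher by 1.57. Class II antigen presentation genes led a group of 13 of which 9 were lower, with H2-Ab1 by -7.49 and the invariant chain Cd74 by -6.74. All 9 mast cell genes were lower, led by Mcpt4 by -7.20 and Cpa3 by -6.57, although Hdc lost its call without replicate 1 or 2 of either tissue, with a smallest difference of 0.61 in size. Of 9 lymphocyte genes 5 were lower, at nerve levels of 9.33 or less.

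**Figure D2:**
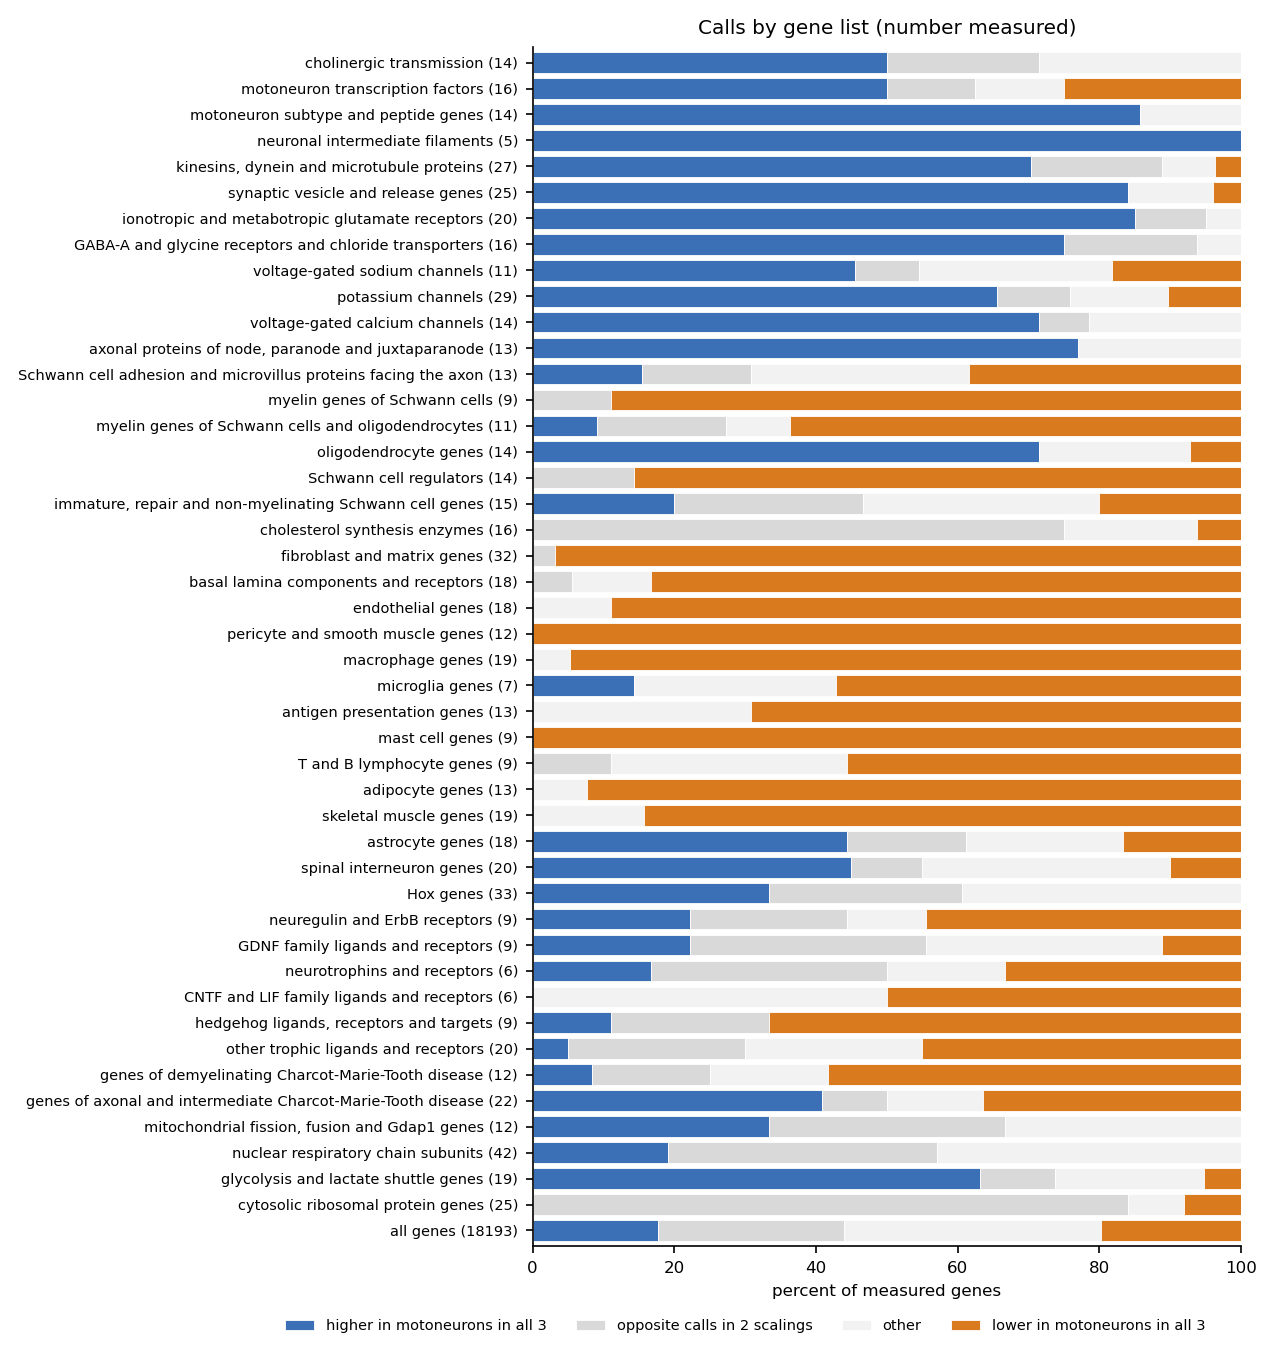
Share of measured genes (horizontal axis, percent) in each of 45 lists, with the number measured in brackets, that were higher in motoneurons in all 3 scalings, lower in all 3, called with opposite signs, or otherwise not agreeing; the last bar gives the same for all 18193 genes. All 5 neuronal filament genes were higher and 31 of 32 fibroblast genes lower, while 21 of 25 ribosomal protein genes had opposite calls.

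The nerve arrays differed among themselves in genes of neighbouring tissues. Of 19 skeletal muscle genes 16 were lower in motoneurons, but the mean of the list was 12.98, 8.29 and 11.58 in nerve replicates 1, 2 and 3. In motoneurons it lay between 5.13 and 5.22. Acta1, skeletal muscle actin, read 14.10, 7.84 and 13.04 in nerve and 4.93, 4.93 and 4.72 in motoneurons, and lost its call without nerve replicate 1 or 3, with a smallest difference of 3.83 in size. The count of 16 fell to 9 without nerve replicate 1, nerve replicate 3 or motoneuron replicate 1 and to 10 without motoneuron replicate 2 or 3. The mast cell mean ran in another order, 10.23, 10.93 and 9.38, and the adipocyte mean was lowest in replicate 3, with 13.08, 13.24 and 12.44. Schwann cell myelin genes varied less, with means of 13.60, 13.57 and 13.83.

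Genes for keratin-associated proteins, which form the hair shaft, stood apart in nerve replicate 3. These genes were picked out after their values were seen. The mean over 38 of them was 10.78 in nerve replicate 3, against 5.61 in replicate 1 and 4.49 in replicate 2, and 28 of them exceeded 10 in replicate 3. It was between 4.50 and 5.21 in the 3 nerve arrays of knockout mice and between 3.79 and 3.94 in all 6 motoneuron arrays. None of the 38 was called higher or lower between the tissues. Over all genes, 354 had a standard deviation above 1 among the nerve arrays, and replicate 3 was the array farthest from the others for 193 of them, replicate 2 for 127 and replicate 1 for 34. In motoneurons 174 genes varied as much, and replicate 3 was farthest for 117. Xist, the RNA that coats an inactivated X chromosome, read 12.49 in nerve replicate 2 and at most 5.12 in nerve replicates 1 and 3, but 9.90 to 10.38 in the motoneuron arrays. Eif2s3y, on the Y chromosome, read 12.77, 4.71 and 12.76 in nerve and 3.22, 3.80 and 3.31 in motoneurons, the reverse. By both transcripts the motoneuron arrays and nerve replicate 2 read as female, and nerve replicates 1 and 3 as male. Tissue and sex thus cannot be fully told apart. With the Xist level as a term in the fit, 5996 probe sets were higher and 10416 lower in all 3 scalings, beside 6419 and 10896 without it.

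**Figure D3:**
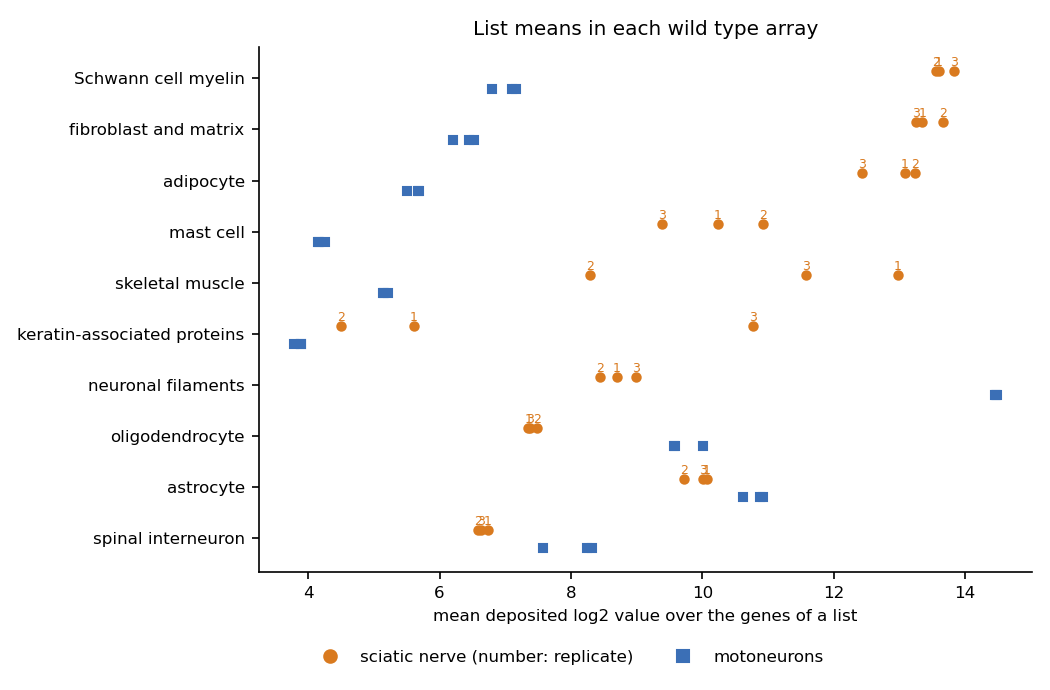
Mean deposited log2 value (horizontal axis) over the genes of each list in each wild type array; circles are nerve arrays with their replicate number and squares motoneuron arrays. Skeletal muscle means spread from 8.29 to 12.98 over the nerve arrays and keratin-associated proteins from 4.49 to 10.78, while Schwann cell myelin means stayed between 13.57 and 13.83.

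Many proteins of the cytoskeleton, metabolism and membrane traffic exist as related genes, and 1 of each pair was taken here as the neuron-type member. Among these, Aldoc is also in the astrocyte list above, and Gdap1l1 has a partner, Gdap1, that was itself higher in motoneurons. Of 27 measured pairs of this kind, the neuron-type member was higher in motoneurons in 23 and lower in none, and its partner was lower in 12 and higher in 5. Both held together in 9 pairs, and the reverse in none. The gap between the members, which the centring cannot change, was widest for the sodium channel pair Scn8a and Scn7a, 11.05 as deposited. It was 9.53 for the SNARE genes Snap25 and Snap23, 8.91 for the tubulins Tubb3 and Tubb6, 8.06 for the adaptor subunits Ap3b2 and Ap3b1 and 7.0 for Map2 and Map4. Hk1, the hexokinase of brain, was higher by 0.50 and Hk2, that of muscle and fat, lower by -4.64. Snap25 was higher by 5.32 and Snap23 lower by -2.45, and the dynamin genes Dnm1 and Dnm2 stood at 2.32 and -0.98. Ndrg4 and Ndrg1, Gnao1 and Gnai2, and Celf4 and Celf2 completed the 9. In Gdap1l1 and Gdap1 the gap had the other sign, -2.07 as deposited, and so it did in Camk2a and Camk2d, at -0.91. Leaving out 1 array gave 7 to 9 such pairs, and averaging all probe sets of each gene gave 14.

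**Figure D4:**
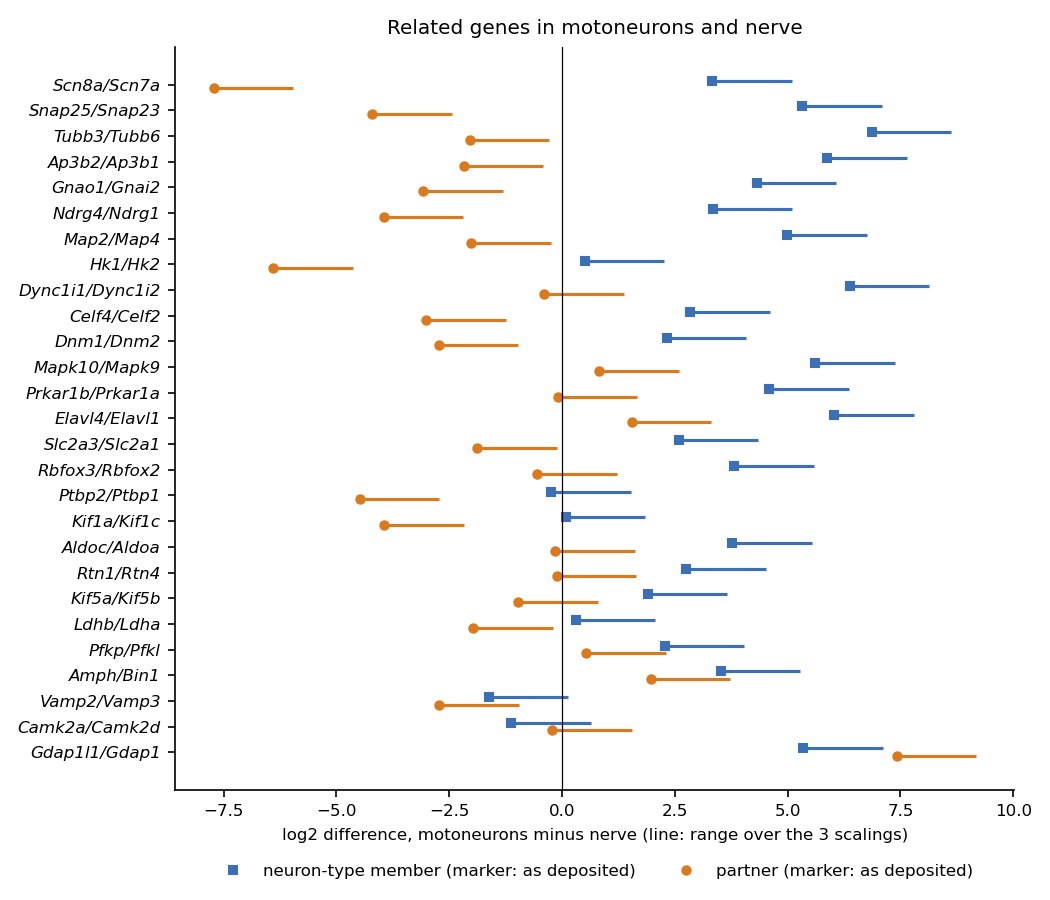
Log2 difference, motoneurons minus nerve (horizontal axis), of the neuron-type member (squares) and its partner (circles) of 27 gene pairs; markers are the deposited values and lines run over the 3 scalings. The neuron-type member lies to the right of its partner in 25 pairs, the exceptions being Camk2a and Camk2d, and Gdap1l1 and Gdap1.

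Of 19 glycolysis and lactate shuttle genes 12 were higher in motoneurons and 1, Hk2, lower. The aldolase gene Aldoc was higher by 3.78, the neuronal glucose transporter gene Slc2a3 by 2.59, phosphofructokinase Pfkp by 2.28 and Eno2, the enolase of neurons, by 1.30. The count of lower genes was 3 without nerve replicate 3, 2 without motoneuron replicate 3 and 4 with all probe sets of a gene averaged. Of 42 nuclear genes for subunits of the respiratory chain 8 were higher, a share near the 17.7% of all genes, none was lower and 16 had opposite calls, with a median of 0.02 as deposited and 1.78 after centring. The 8 were led by Uqcrc1 by 1.2 and Ndufa10 by 1.04, and 2 genes were lower with all probe sets of a gene averaged. Of 25 ribosomal protein genes none was higher, 2 were lower and 21 had opposite calls. Of 33 Hox genes, which mark position along the body axis, 11 were higher (33.3%) and none was lower. Hoxb6 led by 3.40, Hoxb5 by 2.87 and Hoxc8 by 2.55. Another 9 had opposite calls and 13 passed no common call. The median of the list changed sign with the scaling, from -0.18 as deposited to 1.58 after centring.

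Gdap1 (chromosome 1), the gene deleted in the other arrays of the study, encodes a protein of the mitochondrial outer membrane that acts on mitochondrial fission. By its brightest probe set it read 13.30, 13.38 and 13.34 in wild type motoneurons and 6.17, 6.19 and 5.43 in wild type nerve. The difference was 7.41 (SE 0.23) as deposited, 8.5 after quantile normalization and 9.17 after centring (adjusted p = 1.2e-07 as deposited, by limma). A second probe set read 11.05, 11.11 and 11.56 against 6.16, 5.68 and 4.81, and another 9.09, 8.89 and 9.21 against 5.32, 5.33 and 5.24. Both also separated the tissues, by at least 5.70 and 3.76. The last, at 5.26 on average in motoneurons and 5.59 in nerve, differed by -0.33 as deposited and 1.43 after centring and passed no common call. None of these probe sets lies in the deleted exon, by the submitters' account, and they check no label of a knockout array. Gdap1l1, the related gene, read 11.80, 11.95 and 11.78 in motoneurons and 6.46, 6.51 and 6.52 in nerve. Of 12 genes of mitochondrial fission and fusion, the other genes higher in motoneurons were Dnm1l, the fission dynamin, by 1.0 and Opa1, which fuses inner membranes, by 0.58. With all probe sets of a gene averaged, 2 of the 12 were higher and 1 lower. Mfn1, Mfn2, Mief2 and Yme1l1 passed no common call and Fis1, Mff, Mief1 and Oma1 had opposite calls.

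Genes of inherited neuropathy were found on both sides. Of 12 measured genes of demyelinating Charcot-Marie-Tooth disease, 7 were lower in motoneurons and 1, Fig4, was higher by 0.76. After Pmp2 and Egr2 the lower genes were Sbf2 by -2.57, Litaf by -2.50, Sh3tc2 by -2.30, Ndrg1 by -2.19 and Gjb1 by -1.74. Of 22 genes of axonal and intermediate forms 9 were higher (40.9%) and 8 lower (36.4%), beside 17.7% and 19.7% of all genes. With all probe sets of a gene averaged 6 were higher and 8 lower. Leaving out 1 array gave 8 or 9 higher and 6 or 8 lower. Higher genes included the neurofilament genes and the transfer RNA synthetase genes Yars by 1.94, Aars by 1.92 and Gars by 1.22. The small heat shock protein genes Hspb1 and Hspb8 were higher by 0.85 and 0.79. Dync1h1 and Kif1b were higher by their brightest probe sets, but each also had probe sets called lower. Lower genes included Inf2, an actin regulator, by -2.10, Lmna, which encodes nuclear lamins, by -1.95, Gnb4 by -1.86 and the channel gene Trpv4 by -1.83. Mfn2, Bscl2 and Hint1 passed no common call.

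For some genes the probe sets disagreed, and the brightest was not the whole account. Of 9010 genes with more than 1 probe set, 351 had probe sets called higher and others called lower. Ntrk2, the receptor of brain-derived neurotrophic factor, had 8 probe sets. Its 4 higher probe sets differed by 2.14 to 5.30 as deposited, and 2 were lower, by -2.50 and -3.88. The brightest in nerve, at 12.01 there, stood at 9.87 in motoneurons and passed no common call, while the probe set that was brightest in motoneurons, at 12.43, stood at 7.12 in nerve. Kif1b, a kinesin, had 3 higher probe sets and 3 lower ones, from 1.37 to -4.53 as deposited, and the call of its brightest one was lost without nerve replicate 1 or 2 or motoneuron replicate 1 or 3, with a smallest difference of 0.28. Klc1, a kinesin light chain, had probe sets called higher at 4.67 and 0.80 and 1 called lower at -4.13. Nfasc, which has neuronal and glial protein forms, had 1 called higher at 0.42 and 1 called lower at -3.97. Its brightest probe set in nerve, at 13.85 there, differed by -2.04 and passed no common call. The same held for Kcna6, with 6.29, -2.28 and -2.80, and for Dync1h1, with 0.91 and -4.51, as well as for Dnm1l, Fgf1, H2-D1, Kcnd3, Nrcam and Pfkl among the listed genes. Whether such probe sets read different transcripts was not tested.

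**Figure D5:**
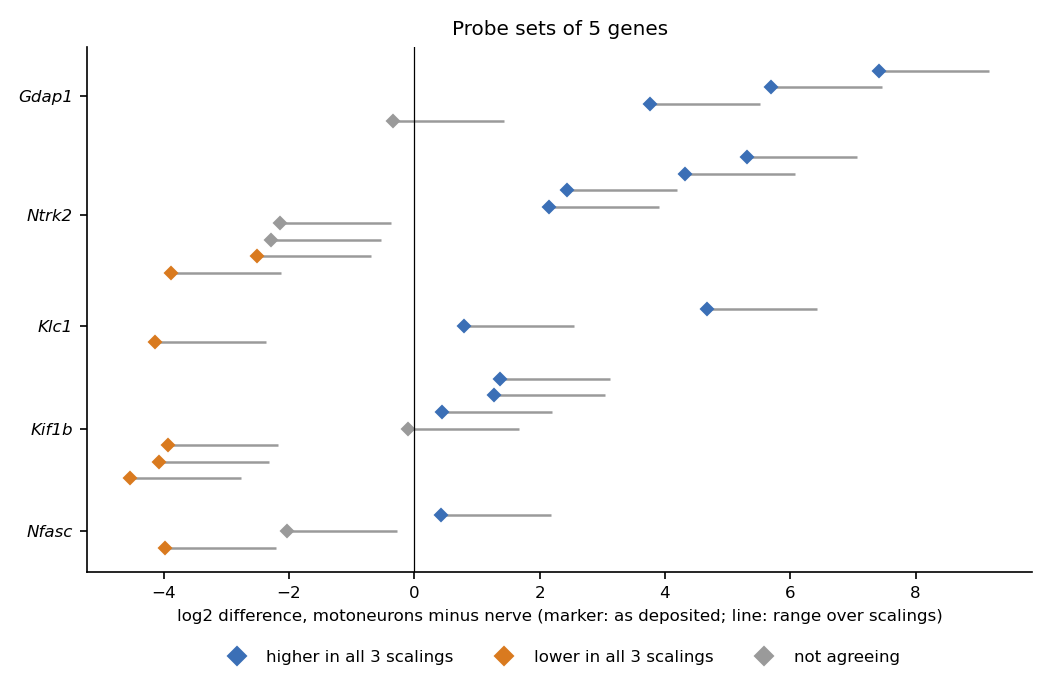
Log2 difference, motoneurons minus nerve (horizontal axis), of each probe set of 5 genes; diamonds are deposited values, coloured by the call over the 3 scalings, and lines run over the scalings. Probe sets of Gdap1 run from 7.41 to -0.33, those of Ntrk2 from 5.30 to -3.88 and those of Kif1b from 1.37 to -4.53.

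The arrays of knockout mice, which the comparison above did not use, gave the same calls for most probe sets. There, 6861 probe sets were higher in motoneurons in all 3 scalings (15.2%) and 10988 were lower (24.4%), beside 6419 (14.3%) and 10896 (24.2%) in wild type. Of all probe sets tested in wild type, 2260 (5.02%) were higher and 5033 (11.2%) lower by at least 2, and 10826 (24%) were called with opposite signs. Of the wild type calls, 90.8% of the higher and 91.4% of the lower were called in the same direction in knockout mice, 84.9% and 90.7% of the knockout calls, and none was called in the opposite direction. All 30 genes named as most different were among those with the same call. The tissue difference itself was tested against genotype with all 12 arrays. No probe set passed (smallest adjusted p = 0.173 by limma), and 3398 had an unadjusted p below 0.05. The count was 238 without wild type motoneuron replicate 3, 2 without wild type motoneuron replicate 1 and 2 without wild type nerve replicate 2.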

How the data were processed

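RNA of 12 samples was hybridised to Affymetrix arrays, and the 6 wild type arrays, 3 of motoneurons and 3 of sciatic nerve, enter the comparison. The authors deposited 1 log2 value per probe set and array, made with Affymetrix Expression Console 1.1 per the submitters' processing notes. How probes were background-corrected and summarized was not given in the sources used. That the tissues were scaled apart was read from the deposited values. Control probe sets (64) were left out. Of the 45037 others, 34945 carry 1 gene symbol, 932 several and 9160 none, and 34741 were found in RefSeq. For each gene the probe set that was brightest on average over the 6 arrays was used.

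Motoneurons minus nerve was fitted per probe set with limma 3.58.1 in R 4.3.3 (lmFit, eBayes with an intensity trend), with Benjamini-Hochberg adjustment over all 45037 probe sets, in each of 3 scalings. The fit was tested on simulated data in which far fewer probe sets changed than were called here. That test therefore does not show how the scalings behave on these data. Other steps used Python 3.11.15 and matplotlib 3.10.9. Named genes are the 15 highest and 15 lowest by smallest difference whose tissues do not overlap, up to 6 members per list by the same measure, members with opposite calls, all gene pairs discussed, the probe sets of Gdap1, and Xist and Eif2s3y; further members are named to complete a description. Members and lists were chosen with earlier results of these data known. The number of arrays limits the precision, and an exact permutation test of 3 against 3 cannot go below 0.1. Same-numbered arrays of the tissues were checked for pairing and did not deviate together, which cannot decide whether they came from the same mice.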

Additional observations from a re-analysis of the deposited data

How the results depend on the processing

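Counts in each direction depended on the scaling. As deposited, 6419 probe sets were higher in motoneurons and 30573 lower; after quantile normalization these were 17832 and 14806, and after centring 24727 and 11106, with 10826 probe sets called with opposite signs in different scalings. In all 3 scalings, 6419 were higher and 10896 lower. Testing for a difference above 1 on the log2 scale left 2933 and 6247. Leaving out 1 array gave 5950 to 6557 higher and 10124 to 10844 lower. The replicate number as a block gave 6227 and 10715, although same-numbered arrays did not deviate together (correlations 0.017, -0.053 and -0.027). Such correlations cannot decide whether arrays came from the same mouse. Xist read 5.12 and 4.49 in nerve replicates 1 and 3 but 10.38 and 10.13 in motoneuron replicates 1 and 3. Those numbers therefore do not pair arrays of the same mouse. For replicate 2 Xist was high in both tissues, and pairing stays undecided. Of the nerve arrays only replicate 2 had high Xist. A comparison among arrays with high Xist thus had no nerve replicates, and its counts are not given. Centring on the 75th percentile instead of the median gave 6419 and 13740. All 6419 probe sets higher as deposited agreed in every scaling, so that count was set by the deposited values. Its stability here therefore gives no support. Of 444 list genes with a call, 30 lost it when at least 1 array was left out. The number of gene pairs split between the tissues was 9, 7 to 9 with 1 array left out and 14 when all probe sets of each gene were averaged. The test of tissue against genotype gave 0 probe sets, and 0 to 238 with 1 array left out. None of the probe sets called alike in all 3 scalings was called the other way in the refits over probe sets; averaging the probe sets of a gene was not part of that count. Arrays have no read depth, and probe sets near the lowest values cannot show how low a transcript is.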

Other observations

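Families of genes with a shared start of the symbol, picked after their values were seen and in part overlapping the groups above, showed further one-sided counts. Of 45 genes whose symbols begin with Col, mostly collagens, 32 were lower in motoneurons and 3 higher. Of 26 beginning with Ifi, which interferon induces, 19 were lower and 1 higher, and of 18 beginning with Ccl, which encode chemokines, 12 were lower and 1 higher. Integrin genes, with symbols beginning with Itg, were lower in 15 of 24 cases and higher in 1. On the other side, of 38 genes beginning with Ube, for ubiquitin-conjugating enzymes and relatives, 16 were higher and 1 lower. Of 35 beginning with Vps, for vacuolar protein sorting, 12 were higher and 1 lower. Of 76 beginning with Mrp, mainly mitochondrial ribosomal proteins, 20 were higher, none was lower and 29 had opposite calls. Zinc finger genes beginning with Zfp showed neither direction in most cases, with 21 of 339 higher, 44 lower and 104 with opposite calls. Over all genes the shares were 17.7% higher, 19.7% lower and 26.2% with opposite calls. These are counts with no test of the families.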
